A study of Mus musculus with 10 samples.

Results

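The comparison set 3 mouse expression arrays titled iPS against 4 arrays titled Neural stem cell, which together are 7 of the 10 arrays of the series, and it was described across 18193 genes. The arrays were grouped by their titles alone, and the comparison was chosen with earlier results of these data known. The brain neural stem cells (NSC) came from adult brain of OG2 mice, which carry an Oct4-eGFP reporter transgene and Rosa26 neo/lacZ, crossed with ICR females, and received no treatment. The cells labelled iPS, for induced pluripotent stem, were made from such neural stem cells with a pMX retrovirus carrying mouse Oct4 cDNA; GFP-positive colonies were picked and grown on irradiated embryonic fibroblasts (MEF) in embryonic stem cell medium with LIF. The reporter and Rosa26 neo/lacZ were therefore shared by both groups, and the groups differed on paper by the retrovirus, the feeder layer and the medium. The remaining 3 arrays, labelled as neural stem cells differentiated from the iPS cells, gave part of the spread estimate and a reference for the marker check. The age of the mice, and whether the arrays of a group came from separate colonies, cultures or animals, were not given in the sources used here, so p-values measure the spread between these arrays, which may be technical.

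Neural stem cells in culture renew under EGF and FGF, hold Notch signalling and its Hes target genes active, and can form neurons, astrocytes and oligodendrocytes. Pluripotent cells run a different network centred on Oct4, Nanog and Sox2, of which Sox2 is shared by both cell types. A reprogrammed line is therefore recognised by the gain of Oct4, Nanog and their partners together with the loss of neural stem cell genes.

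The arrays labelled iPS did not show that exchange. Pou5f1, which encodes Oct4, stood at 4.49, 4.78 and 4.72 on the 3 arrays labelled iPS and at 4.50, 4.53, 4.62 and 4.56 on the 4 brain NSC arrays, in log2 units of the deposited expression values. The groups overlapped (difference 0.11 ± 0.12 SE, limma adjusted p = 0.563), and both lay far under the mean of 13.29 on the arrays labelled iPS-derived NSC. The other reprogramming factors were not called either. Sox2 differed by -0.14 (adjusted p = 0.314) and Klf4 by -0.26 (adjusted p = 0.195). Myc was 0.47 higher (adjusted p = 0.00612), which is under 2-fold.

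The same held for whole marker lists. The 10 pluripotency markers averaged 4.35 on the arrays labelled iPS and 4.42 on brain NSC arrays, against 11.75 on those labelled iPS-derived NSC. Nanog, a core pluripotency factor, averaged 3.90 and 4.08 in turn, both under the lower quartile of all probe sets, which was 4.22 to 4.28 over the 7 arrays. The 9 measured neural stem cell markers averaged 12.30 and 12.39, against 6.96 on the arrays labelled iPS-derived NSC. Among them Fabp7, the brain lipid binding protein, stood at 14.17 and 14.45, and Olig2, a neural progenitor transcription factor, at 12.78 and 12.47. The tested arrays labelled iPS thus carried the neural stem cell marker profile, and their title was contradicted by these values. The arrays labelled iPS-derived NSC carried the pluripotent profile instead, so the titles of these 2 groups may have been exchanged, which the sources used here do not settle. The comparison may therefore be one of iPS-derived NSC with brain NSC, and the feeder layer and LIF medium given for the arrays labelled iPS may not apply to them. The name "arrays labelled iPS" is kept below, and every direction rests on that label.

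Markers of other cells that the cultures could hold had similar list means in both groups. The 8 feeder fibroblast markers averaged 5.04 on the arrays labelled iPS and 4.96 on brain NSC, and Col3a1, a fibrillar collagen, averaged 3.62 in both. The means were 6.18 and 6.26 for 6 neuron markers, 6.89 and 7.09 for 5 astrocyte markers and 5.40 and 5.32 for 4 oligodendrocyte markers. Among neuron markers Map2 was high in both groups, at 12.24 and 12.46, while Snap25, a synaptic protein, averaged 3.51 and 3.61. Among astrocyte markers Gja1, or connexin 43, was high in both and lower on the arrays labelled iPS, at 11.66, 11.52 and 11.57 against a brain NSC mean of 12.40 ± 0.29 (SD, n = 4), without overlap (-0.81, adjusted p = 0.00105) and under 2-fold. Microglia (4.71 and 4.79), endothelium (4.75 and 4.82) and ependyma (5.08 and 5.19) completed the check, where Ccdc39, a ciliary protein, averaged 5.10 and 6.05 with overlapping arrays (adjusted p = 0.0559). No marker of any of these 9 lists was called, where a call needs a limma adjusted p under 0.05 and a difference of at least 2-fold. With 1.84% called among all genes, the lack of calls in such short lists says nothing particular about them. In such bulk samples, fewer cells of a type and less RNA per cell cannot be told apart.

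**Figure D1:**
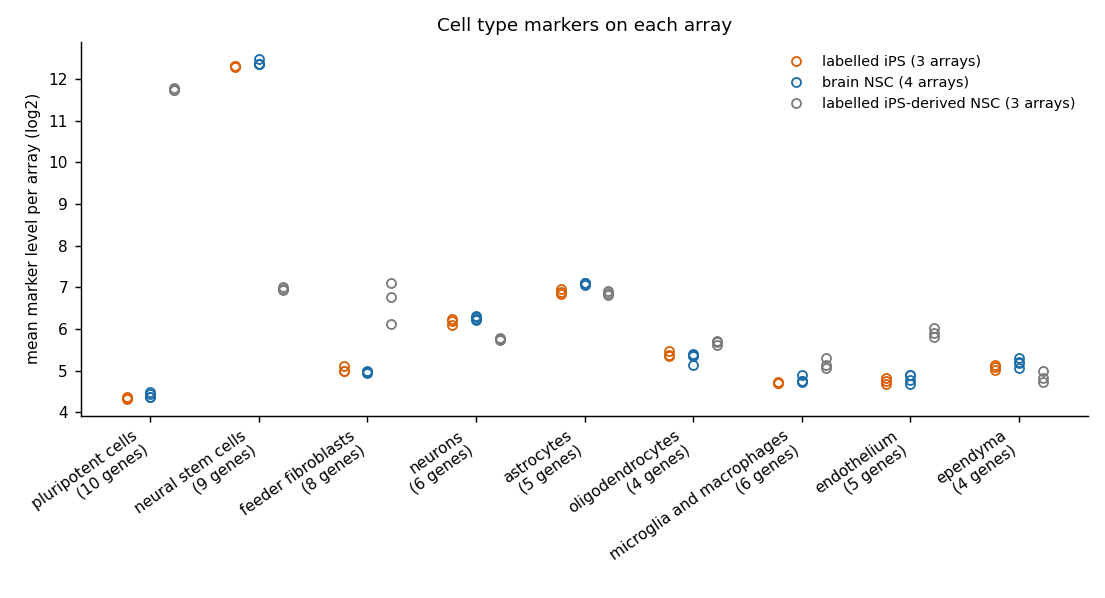
Mean log2 level of each cell type's markers on each array (vertical axis), by cell type (horizontal axis) and group; each circle is 1 array. The arrays labelled iPS sit with the brain NSC arrays at 12.30 and 12.39 for neural stem cell markers and at 4.35 and 4.42 for pluripotency markers, while the third group holds the opposite pattern.

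Brain NSC array 4 stood apart from the other arrays of its group. Its correlation over genes was 0.990 to 0.993 with the 3 other brain NSC arrays, which correlated at 0.996 to 0.998 with each other, and 0.992 with each array labelled iPS. The median over all probe sets was 5.65 to 5.69 on the 7 arrays. The 3' minus 5' difference of the Actb control probe sets was 0.50 to 0.67 on the arrays labelled iPS and 0.15 to 0.43 on brain NSC, and that of Gapdh was -0.11 to -0.01 and -0.25 to -0.12. These RNA quality readings did not overlap between the groups, and their part in the results was not tested.

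Between the groups, 335 of 18193 genes were called, which is 1.84% of those tested. Every count of called genes in a list below is to be read beside that share. Of the 335 genes, 173 were higher on the arrays labelled iPS (0.951%) and 162 lower (0.89%). The arrays of the groups did not overlap for 328 of the 335, beside 28.3% of all genes tested. A call needs at least 2-fold and a small adjusted p, which favours genes without overlap. This count is therefore a description, as is the same remark for single genes below. Most differences were modest: 8 genes were at least 4-fold higher and 21 at least 4-fold lower, and past 8-fold there were 1 and 4. The median difference over all genes was 0.01. Without brain NSC array 4 the count was 333 higher and 206 lower, and 321 of the 335 genes were called again. That array was the one nearest to the arrays labelled iPS for 112 of the 173 higher genes (64.7%) and for 103 of the 162 lower genes (63.6%).

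The largest rise was in Car6, which encodes a secreted carbonic anhydrase. It measured 7.53, 7.41 and 7.48 on the arrays labelled iPS and 4.61, 4.43, 4.42 and 4.26 on brain NSC, an 8.24-fold difference (3.04 ± 0.09 SE, adjusted p = 1.09e-09). Cd93, a C-type lectin-like receptor best known on endothelial and myeloid cells, followed at 12.35, 12.17 and 12.28 against 9.32, 9.41, 9.56 and 9.56 (2.80 ± 0.09 SE, adjusted p = 1.44e-09). Neither gene's arrays overlapped between groups. Cd93 was accompanied by no called gene among the other 15 measured members of the endothelium and pericyte list, and its own 5 probe sets differed by 0.79 to 3.12. The nuclear RNA Malat1 measured 11.56, 12.49 and 11.51 against 9.65, 9.85, 9.82 and 9.08 (2.25 ± 0.23 SE), but its 7 probe sets ran from -0.89 to 2.34, and their mean differed by 0.92, under 2-fold. Nxpe4 (2.21) and Zbed6 (2.32) were also among the 15 largest rises, and the probe sets of Zbed6 ran from -0.36 to 2.32. Without labelled iPS array 2 or 3 another Zbed6 probe set was the brightest, and its value was -0.34 or -0.20.

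With each gene at its brightest probe set, the largest fall was in Pcdh7, a protocadherin of the cell surface. It measured 3.46, 3.15 and 3.36 on the arrays labelled iPS and 8.04, 8.19, 7.79 and 7.30 on brain NSC, a 22.7-fold difference (-4.51 ± 0.18 SE, adjusted p = 6.86e-09). The 3 probe sets of Pcdh7 ran from -4.51 to -0.31, and these levels are those of its brightest. All 3 arrays labelled iPS lay under the lower quartile of all probe sets for this gene, and each brain NSC array lay above the median. The mean on the arrays labelled iPS was likewise under that quartile for Zfhx4, Met and Cadps among the 15 largest falls. Rbmx, an X-linked RNA-binding protein, fell by 2.52 on its brightest probe set, while its 4 probe sets ran from -2.52 to -0.16 and their mean fell by 0.84.

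**Figure D2:**
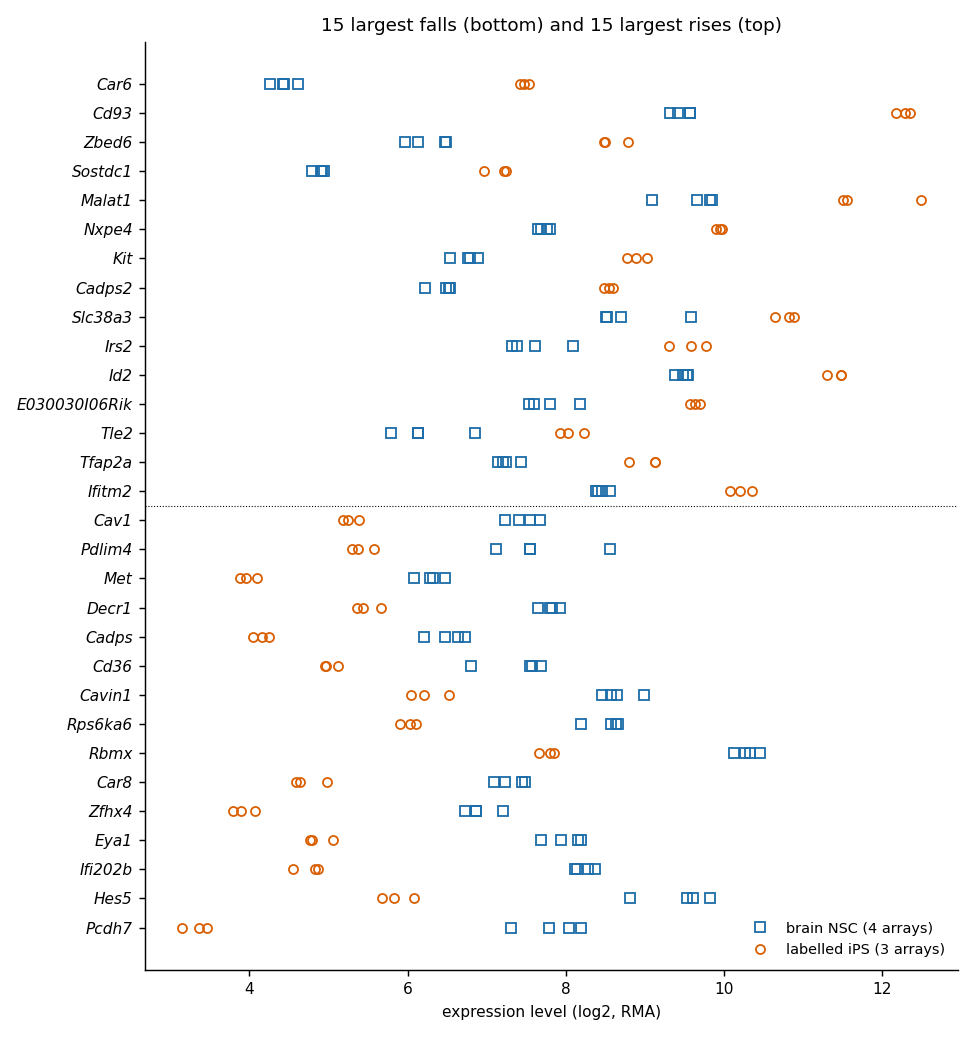
Log2 level on each array (horizontal axis) of the 15 genes that were most strongly raised and the 15 most strongly lowered on the arrays labelled iPS; circles are the 3 arrays labelled iPS and squares the 4 brain NSC arrays. Car6 heads the rises at 3.04 and Pcdh7 the falls at -4.51, and the genes drawn were chosen among called genes whose groups do not overlap.

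Notch signalling passes from a ligand on one cell to a Notch receptor on its neighbour, whose cleaved domain joins the DNA-binding protein RBPJ and switches on repressors of the Hes and Hey families. Hes5, the target that keeps neural progenitors undifferentiated, was the second largest fall: 6.08, 5.67 and 5.83 on the arrays labelled iPS against 9.82, 9.53, 9.61 and 8.81 (-3.58 ± 0.19 SE, adjusted p = 7.49e-08). The lowest brain NSC array, array 4, still lay above the highest array labelled iPS, and the second Hes5 probe set fell by 1.67. Dner, a neuronal surface ligand with EGF repeats, measured 9.60, 9.72 and 9.68 against 11.43, 11.15, 11.17 and 11.60 and fell by 1.67 (adjusted p = 2.67e-05). These were the 2 called genes among the 25 measured on the Notch list, whose median difference was -0.02. A further 8 members, named after their values were seen, had an adjusted p under 0.05 beneath 2-fold, 6 lower and 2 higher. In all, 10 of the 25 were under that adjusted p, beside 3704 of the 18193 genes tested. Whether the list differs from that share was not tested. Lower were the targets Hes1 (-0.69, adjusted p = 0.0022) and Hey1 (-0.61, adjusted p = 0.000691), the ligand Jag1 (-0.78), the receptor Notch2 (-0.79), the inhibitor Numb (-0.52) and Rbpj itself (-0.26). Higher were Rfng, a glycosyltransferase that modifies Notch receptors (0.84, adjusted p = 0.00443), and the receptor Notch1 (0.46, adjusted p = 0.0344). The ligand Dll1 differed by -0.07 (adjusted p = 0.701).

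Promoters of Hes5 and Hey2 are shown because Hes5 moved most among the Notch target genes while Hey2 stayed near 3.4 in both groups (-0.13, adjusted p = 0.443). Both sequences are from RefSeq on GRCm38.p6, 250 bases before to 50 after the gene start, read 5′ to 3′ on the gene's strand. Capitals mark the RBPJ core TGGGAA or its reverse complement TTCCCA; the matches did not overlap. Hes5 lies on the plus strand at chr4:154960673-154960972 and Hey2 on the minus strand at chr10:30842734-30843033.
Hes5: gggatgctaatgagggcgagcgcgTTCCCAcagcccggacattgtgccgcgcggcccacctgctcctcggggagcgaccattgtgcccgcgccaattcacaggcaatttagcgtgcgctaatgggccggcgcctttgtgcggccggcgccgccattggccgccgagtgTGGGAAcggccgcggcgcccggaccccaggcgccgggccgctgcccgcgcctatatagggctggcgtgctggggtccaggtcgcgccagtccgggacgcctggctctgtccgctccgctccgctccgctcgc
Hey2: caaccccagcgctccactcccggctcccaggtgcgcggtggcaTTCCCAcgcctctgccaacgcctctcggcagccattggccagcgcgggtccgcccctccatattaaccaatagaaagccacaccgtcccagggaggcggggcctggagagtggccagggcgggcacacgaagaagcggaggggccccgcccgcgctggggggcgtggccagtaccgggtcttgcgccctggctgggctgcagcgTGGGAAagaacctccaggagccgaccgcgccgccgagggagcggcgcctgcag
Each held 2 matches, starting 226 and 82 bases before the start in Hes5 and 207 and 3 bases before it in Hey2. The core occurred in 25.6% of 32851 promoters of that length and at least 2 times in 3.79%. No match was found in the windows of Dner, Hes6 and Nrarp. Promoters of Hes1, Hey1 and Heyl were not among the sequences used here. The promoter letters were alike in this respect for a gene that fell and for one at background level.

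BMP signals reach the nucleus through Smad proteins and raise the Id genes, which encode inhibitors of proneural helix-loop-helix factors. The Id family split. Id2 measured 11.48, 11.30 and 11.47 on the arrays labelled iPS against 9.38, 9.48, 9.53 and 9.54 and was 3.82-fold higher (adjusted p = 7.49e-08). Id3 measured 9.15, 8.999 and 9.28 against 10.71, 10.88, 10.72 and 10.73 and was 3.06-fold lower (adjusted p = 1.95e-07). Neither pair of groups overlapped, so 2 members of a family moved in opposite directions on the same arrays. Id1 differed by -0.76 (adjusted p = 0.000423) and Id4 by -0.34 (adjusted p = 0.0435), both short of 2-fold. For Id2 the 3 probe sets ran from 0.43 to 1.93, and without probe sets that can bind related transcripts its value was 0.43. That setting left out probe sets named with _a_at, _s_at or _x_at. The _a_at ending, which the brightest Id2 and Tgfb2 probe sets carry, marks several transcripts of the same gene rather than other genes. Of 44 measured BMP, TGF-beta and Id genes, 2 were called higher and 1 lower; the third was Tgfb2, a TGF-beta ligand, at 1.35 (its 4 probe sets 0.38 to 1.35). Tgfb2 was 0.91 with the mean of probe sets and 0.78 without probe sets that can bind related transcripts; the latter setting left 0 of 42 genes higher and 1 lower.

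Wnt signalling, which controls progenitor growth through beta-catenin and TCF factors, gave 1 called gene of 44 measured. This was Sostdc1, a secreted protein that blocks BMP and Wnt ligands, at 6.97, 7.22 and 7.24 on the arrays labelled iPS against 4.94, 4.91, 4.79 and 4.91 (2.26 ± 0.09 SE, adjusted p = 7.22e-09). Its levels were far above those of every brain NSC array, and its other probe set gave 2.94. Tle genes form the Groucho family, in which Tle2 encodes a corepressor that acts with TCF, Hes and other DNA-binding factors. Tle2 measured 7.93, 8.23 and 8.03 against 6.13, 6.13, 5.79 and 6.86 and was 3.58-fold higher (adjusted p = 4.17e-05). Tle5 (1.32, adjusted p = 0.00379) and Tle6 (1.22, adjusted p = 6.03e-05), chosen after their values were seen, were also called higher. Tle1 differed by -0.07 (adjusted p = 0.643) and Tle4 by -0.22 (adjusted p = 0.0856), while Tle3 stood 0.87 higher, under 2-fold. For Tle2, Tle5 and Tle6 the highest brain NSC array was array 4. Among 14 measured Hedgehog genes none was called, at a list median of 0.15, which says little beside 1.84% called among all genes.

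Receptor tyrosine kinases, which relay the EGF and FGF of the culture medium and related growth factors, exchanged members. Kit, the stem cell factor receptor, measured 8.78, 9.02 and 8.88 on the arrays labelled iPS against 6.79, 6.76, 6.54 and 6.89 and was 4.44-fold higher (adjusted p = 4.66e-08). Met, the receptor of hepatocyte growth factor, measured 3.88, 3.96 and 4.10 against 6.08, 6.47, 6.28 and 6.32 and was 4.95-fold lower (adjusted p = 1.26e-08). Met thus moved from above the array median to under the lower quartile, and its other probe set fell by 0.40. Fgfr1, an FGF receptor, was 1.07 higher (adjusted p = 0.000617). Egfr, the EGF receptor, measured 10.88, 10.54 and 10.67 against 11.98, 11.64, 11.70 and 11.44; its difference of -0.996 lay a little inside 2-fold, so it was not called (adjusted p = 0.000174). Without brain NSC array 3, Fgfr1 lay just under 2-fold at 0.998. The ligands Vegfc (-1.63, with its 3 probe sets from -1.63 to -0.32) and Pdgfc (-1.43) were lower. Vegfc was low in both groups, at means of 3.35 on the arrays labelled iPS and 4.98 on brain NSC.

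Among the feedback inhibitors on the same list, 3 were called. Spry1 rose by 1.16 (adjusted p = 0.000646), Spry4 by 1.11 (adjusted p = 0.000265) and Dusp4, a MAP kinase phosphatase, by 1.14 (adjusted p = 7.35e-05). Spry1 measured 11.88, 11.96 and 11.92 on the arrays labelled iPS and 10.63, 10.39, 10.66 and 11.36 on brain NSC, with array 4 the nearest. Spry4 was 0.98 without brain NSC array 2, short of a call. Spry2 differed by -0.21 (adjusted p = 0.669) and Dusp6 by 0.27 (adjusted p = 0.0543), and Dusp10, a phosphatase outside the list named after its value was seen, was called lower, at means of 6.36 and 7.36. Without labelled iPS array 1, brain NSC array 1 or brain NSC array 4, Dusp10 was not called (-0.96 to -0.95). Irs2, the adaptor of insulin and IGF receptors, measured 9.30, 9.78 and 9.58 against 7.32, 7.61, 7.38 and 8.09 (1.95 ± 0.19 SE). In all, 5 of 60 measured genes of FGF, EGF and PDGF signalling were called higher and 3 lower, at a list median of 0.13. That is 13.3% of the list, beside 1.84% of all genes. Without brain NSC array 4 it was 8 and 4, and with the mean of all probe sets 4 and 1. Fgfr1, Dusp4, Irs2 and Vegfc lie on chromosome 8, which is described at the end. The immediate early genes Egr1 (1.35) and Ier2 (1.11, on chromosome 8), which respond to such signals, were the 2 called among 25 measured. Both were higher, and the count stands beside the same 1.84%.

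Transcription factors that pattern the nervous system included some of the deepest falls. Eya1, a transcriptional coactivator and phosphatase, measured 5.06, 4.76 and 4.79 on the arrays labelled iPS against 8.16, 8.20, 7.94 and 7.69 (-3.13 ± 0.13 SE, 8.73-fold). The 3 probe sets of Eya1 ran from -3.13 to -0.28. Zfhx4, a zinc finger homeobox factor, measured 3.79, 3.90 and 4.07 against 7.20, 6.86, 6.86 and 6.73, which is 7.97-fold lower (adjusted p = 7.22e-09). On the arrays labelled iPS, Zfhx4 lay under the lower quartile of all probe sets and Eya1 under the array median, and on brain NSC both lay above that median. Lhx2, a LIM homeobox factor of the forebrain, went the other way, at 8.49, 8.43 and 8.56 against 6.98, 6.97, 7.07 and 7.76 (1.30, adjusted p = 0.000207). Otx2, a forebrain and midbrain homeobox factor, was 1.00 higher (adjusted p = 0.00082), at the edge of the threshold. It was 0.88 without brain NSC array 1, 0.91 without brain NSC array 4, 0.97 without labelled iPS array 2 and 0.98 without labelled iPS array 3, none of them a call. Thus 2 of 31 measured forebrain genes were higher and 2 lower, at a median of 0.02.

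Tfap2a and Twist1 were called higher. Tfap2a, a neural crest specifier, measured 9.12, 8.80 and 9.12 against 7.43, 7.20, 7.14 and 7.24 (1.76 ± 0.12 SE, adjusted p = 7.59e-07). Twist1, a mesenchymal helix-loop-helix factor, measured 7.96, 8.40 and 8.06 against 6.60, 6.52, 6.64 and 6.996 (1.45, adjusted p = 8.03e-05). The arrays did not overlap for either gene. With Kit, Tfap2a made 2 called of 13 measured neural crest and Schwann genes, at a list median of 0.06; without probe sets that can bind related transcripts it was 1 of 11. Twist1 was the 1 called of 18 measured feeder fibroblast genes, at a median of 0.01, and the 8 fibroblast markers stood at the levels given above. Of 42 hindbrain, spinal cord and Hox genes 1 was called, Irx5 at 1.11 on chromosome 8; without labelled iPS array 2 it lay just short of 2-fold and was not called. Among 36 Sox, POU and helix-loop-helix factors, Sox5 was called at 1.09, though its 7 probe sets ran from -0.14 to 1.09.

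Cadherins and protocadherins, which join cells of like kind, held Pcdh7 and 4 further called falls. Cdh10 measured 7.32, 7.30 and 7.36 on the arrays labelled iPS against 8.95, 8.997, 8.78 and 8.45 (-1.47, with 4 probe sets from -1.47 to -0.03), and Fat3 fell by 1.30. Cdh22 (-1.24) and Pcdh10 (-1.08) were lower as well, where the 6 probe sets of Pcdh10 ran from -5.25 to -1.08 and its brightest gave the smallest fall, and Cdh4, or R-cadherin, was 1.01 higher. The list therefore had 1 gene higher and 5 lower of 30 measured, at a median near 0, beside 1.84% called among all genes. This and the other lists were chosen with earlier results of these data known, so such shares are descriptions. Without brain NSC array 1, 2 or 3 or labelled iPS array 3, Cdh4 was 0.94 to 0.995 higher and not called, and without brain NSC array 1 Pcdh10 was not called at -0.997.

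Integrins bind cells to the matrix, and 5 of the 15 measured were called, beside 1.84% of all genes. Itgb5 measured 9.02, 9.04 and 9.05 against 7.06, 7.43, 7.30 and 8.03 (1.59, adjusted p = 0.000102), Itga1 was 1.08 higher and Itga9 was 1.03 higher. Itgb8, which activates TGF-beta, measured 10.62, 10.15 and 10.51 against 11.62, 11.57, 11.57 and 11.25 and fell by 1.07, and Itga7, a laminin receptor subunit, fell by 1.17. Itgb5 and Itgb8 are both partners of the alpha-v chain and moved in opposite directions. Without brain NSC array 4, Itga1 (0.98) and Itga7 (-0.95) were short of 2-fold. So were Itga9 without labelled iPS array 1 (0.97) or brain NSC array 1 (0.98) and Itgb8 without labelled iPS array 2 (-0.93). In the matrix itself 2 of 66 measured genes (3.03%) were called, near the share over all genes. Both were higher: Emilin1, an elastic fibre glycoprotein (2.83-fold, adjusted p = 1.4e-05), and Col5a2, a collagen V chain (2.75-fold, adjusted p = 0.000149). The metalloprotease inhibitors Timp1 (-1.36) and Timp3 (-1.28) were the 2 called among 43 proteases and inhibitors.

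Guidance and synaptic adhesion genes held 6 called falls. Epha7, an ephrin receptor, measured 5.18, 4.91 and 5.50 against 6.99, 7.01, 6.70 and 6.47 and fell by 1.60 (adjusted p = 1.97e-05). The secreted repellents Slit2 (-1.13) and Sema3d (-1.01) made 3 of 62 axon guidance genes lower and 0 higher, beside 1.84% called among all genes. Without brain NSC array 4 it was 4 lower and 1 higher, and with the mean of probe sets 1 lower and 0 higher. Sema3d was within 2-fold without either labelled iPS array 2 or 3, or without brain NSC array 1, 2 or 3, where its value was -0.98 to -0.93. As the mean of their probe sets, Slit2 (-0.43) and Sema3d (-0.64) were not called. Lrrn1, a leucine-rich repeat membrane protein, measured 8.06, 7.66 and 7.61 against 9.69, 9.41, 9.51 and 9.57 (-1.77), and with Flrt2 (-1.65) and Cntn1, or contactin (-1.27), it made 3 of 52 neural adhesion genes lower, at a list median of -0.10. For these 3 genes the arrays did not overlap between groups, but the probe sets of Lrrn1 ran from -1.77 to -0.02. Reln, the secreted guide of migrating neurons, was 2.07 lower and was chosen after its value was seen.

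Cadps and Cadps2 encode the 2 CAPS proteins, which prime dense-core vesicles for release, and they moved in opposite directions. Cadps measured 4.16, 4.05 and 4.25 on the arrays labelled iPS against 6.47, 6.73, 6.20 and 6.64 (-2.35 ± 0.13 SE, adjusted p = 1.62e-07). Cadps2 measured 8.59, 8.48 and 8.54 against 6.54, 6.53, 6.48 and 6.22 (2.10 ± 0.11 SE, adjusted p = 6.97e-08). Each gene has 1 probe set, and the groups overlapped for neither. Carbonic anhydrases gave a second such pair, with Car6 higher and Car8, a catalytically inactive relative, at 4.98, 4.64 and 4.59 against 7.45, 7.49, 7.22 and 7.09 (-2.58). The Car8 probe sets ran from -2.58 to -0.53.

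Excitability genes were mostly lower where they were called. Of 59 measured ion channel genes 4 were lower: the auxiliary calcium channel subunits Cacng5 (-1.61), Cacna2d3 (-1.33) and Cacna2d1 (-1.13), and the potassium channel Kcnd2 (-1.46). Kcnk1, a two-pore potassium channel on chromosome 8, was 1.28 higher. With the mean of probe sets the count was 0 higher and 1 lower. The 4 probe sets of Kcnd2 ran from -1.46 to 0.03 and the 2 of Cacng5 from -1.61 to -0.14. As the mean of their probe sets, Kcnd2 (-0.56) and Cacng5 (-0.87) were not called. Grm3, a metabotropic glutamate receptor, measured 6.20, 6.39 and 6.22 against 8.20, 8.03, 7.85 and 7.49 and fell by 1.62. The taurine transporter Slc6a6 was 1.25 higher, though its 4 probe sets ran from -0.14 to 1.25. These were the 2 called of 54 neurotransmitter receptors and transporters. Among 70 G protein-coupled receptors and peptides the 2 called were lower: Rgs8, a regulator of G protein signalling (-1.61), and S1pr1, a sphingosine-1-phosphate receptor (-1.08).

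Caveolae are membrane pits built by caveolins and cavins. Cav1 measured 5.38, 5.24 and 5.18 on the arrays labelled iPS against 7.23, 7.67, 7.41 and 7.55 and was 4.58-fold lower (adjusted p = 8.42e-07). Cavin1 measured 6.21, 6.04 and 6.52 against 8.57, 8.98, 8.65 and 8.45 and was 5.30-fold lower (adjusted p = 1.78e-07), with probe sets from -2.41 to -0.27. Without probe sets that can bind related transcripts Cavin1 was at -0.61 and not called, and Cav1, whose 1 probe set is of that kind, had no value. The brightest probe set of each carries the _a_at ending, which marks transcripts of the same gene. Cav2 (-0.73, adjusted p = 0.00064) and Cavin3 (-0.60, adjusted p = 0.0123), chosen after their values were seen, did not reach 2-fold, and Cavin2 differed by -0.01. Cd36, a fatty acid receptor, measured 5.12, 4.97 and 4.96 against 7.54, 7.68, 7.57 and 6.80 and was 5.21-fold lower, with 3 probe sets from -2.38 to -0.65. Apoe, the lipoprotein carrier of the brain, fell by 1.14; with Cd36 it made 2 of 26 lipid handling genes lower and 0 higher. Decr1, a mitochondrial enzyme of unsaturated fatty acid oxidation, fell by 2.31 (adjusted p = 1.26e-08), with 2 probe sets from -2.31 to -0.39.

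Of the lipid synthesis and amino acid and glucose transport lists 5 genes were called, all higher, and for Srebf1, Dhcr7, Slc38a3 and Slc7a5 brain NSC array 4 was the nearest to the arrays labelled iPS. Srebf1, the SREBP-1 regulator of lipid synthesis, measured 11.33, 11.29 and 11.24 against 9.15, 9.30, 9.26 and 10.66 (1.70 ± 0.30 SE, adjusted p = 0.0016). Dhcr7, the last enzyme of cholesterol synthesis, measured 11.65, 11.75 and 11.60 against 10.33, 10.16, 10.37 and 11.72, so array 4 lay inside the range of the arrays labelled iPS (1.02, adjusted p = 0.0217). Dhcr7 was not called when any array other than brain NSC array 4 was left out, and was 1.38 higher without that array. Of 30 cholesterol and fatty acid synthesis genes 2 were higher and 0 lower, at a median of 0.10; without brain NSC array 4 it was 3 and 0, and without any other array 1 and 0. The glutamine transporter Slc38a3 measured 10.64, 10.88 and 10.82 against 8.52, 8.69, 8.51 and 9.58 (1.95, adjusted p = 4.38e-05). Slc7a5, the large neutral amino acid transporter, on chromosome 8, was 1.05 higher and dropped to 0.96 without brain NSC array 1, 2 or 3, short of a call. With Slc6a6, for which array 4 lay among its own group at 7.36, they made 3 of 23 amino acid and glucose transporters higher and 0 lower. In glycolysis Pfkp, a phosphofructokinase, was the 1 called of 24, at 5.55, 4.79 and 5.21 against 7.12, 7.40, 7.16 and 7.38 (-2.08). None of 37 oxidative phosphorylation genes was called, at a median of -0.14. With 1.84% called among all genes, 0 calls in 37 say nothing particular about them.

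**Figure D3:**
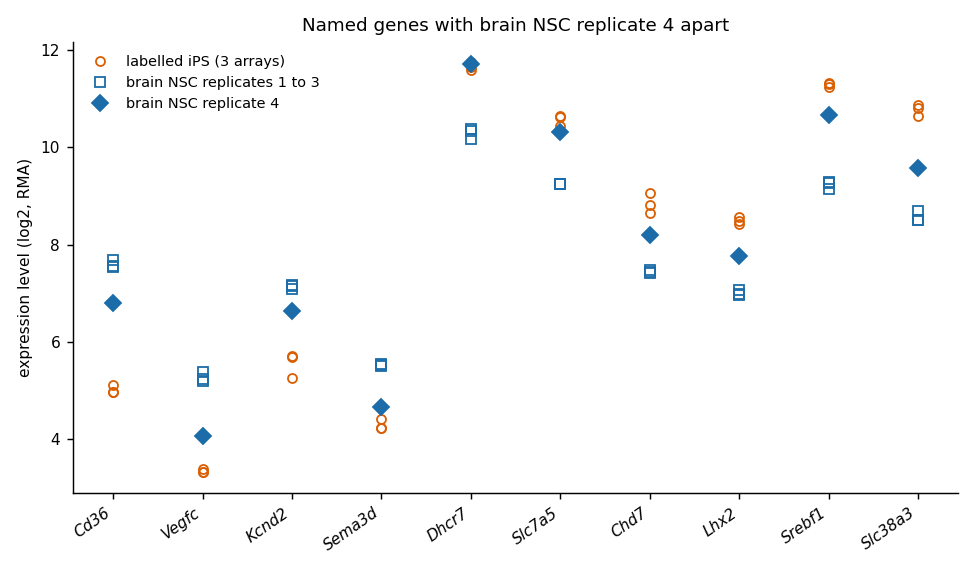
Log2 level on each array (vertical axis) of the 10 named genes for which brain NSC replicate 4 (filled diamond) stood far from brain NSC replicates 1 to 3 (squares); circles are the 3 arrays labelled iPS. In each gene replicate 4 lies on the side of the arrays labelled iPS, and for Dhcr7, at 11.72, it lies within them.

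Genes induced by interferon, which signals viral and inflammatory stimuli, moved both ways. Ifi202b, a cytosolic DNA sensor family member, measured 4.83, 4.55 and 4.87 on the arrays labelled iPS against 8.12, 8.37, 8.28 and 8.14, or 11.1-fold lower (adjusted p = 1.09e-09). The guanylate binding proteins Gbp2 (-1.73) and Gbp3 (-1.31) were lower too. Gbp2 was low in both groups, at means of 3.83 on the arrays labelled iPS and 5.56 on brain NSC. Ifitm2, a membrane protein that blocks virus entry, measured 10.07, 10.36 and 10.20 against 8.38, 8.55, 8.41 and 8.45 (1.76, adjusted p = 1.41e-07), and Ifi35 was 1.01 higher. Ifi35 was not called without labelled iPS array 1 (0.91) or 3 (0.97) or brain NSC array 4 (0.87). The count was 2 higher and 3 lower of 30 measured, at a median of -0.04. Without probe sets that can bind related transcripts it was 1 and 1 of 22, and Ifi202b, whose 1 probe set is of that kind, had no value. None of 13 MHC class I and antigen processing genes was called, which says little beside 1.84% called among all genes. Among 35 complement, chemokine and innate immunity genes, Cd109, a surface protein that binds TGF-beta (-1.81), and Ackr3, a scavenging chemokine receptor (-1.20), were lower. Ackr3 was low in both groups, at means of 3.76 on the arrays labelled iPS and 4.96 on brain NSC. Lgals3, or galectin-3, fell by 1.85 and was chosen after its value was seen.

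Called growth control genes moved both ways. Cdk6, the G1 cyclin-dependent kinase, measured 6.35, 5.92 and 5.75 against 8.36, 8.24, 8.17 and 7.82 (-2.14, adjusted p = 1.21e-06), and Cdc25a, a phosphatase that activates such kinases, was 1.16 higher, with probe sets from -0.00 to 1.16. The other 32 of 34 measured cell cycle genes were not called, and the list median was 0.11. Among 32 CDK inhibitor, p53 and cell death genes, Sesn3, a stress-induced regulator of mTORC1, fell by 1.87 and Casp12 was 1.54 higher. The BH3 protein Pmaip1, or Noxa, also fell by 1.16, at low means of 3.85 on the arrays labelled iPS and 5.01 on brain NSC. Max, the obligate partner of Myc, fell by 1.54 (adjusted p = 4.64e-06), and the Rag GTPases Rraga (-1.15) and Rragd (-1.68), which relay amino acids to mTORC1, were lower; these 3 were chosen after their values were seen. Rps6ka6, an X-linked ribosomal S6 kinase, fell by 2.50. Aldh1a1, which makes retinoic acid, measured 3.96, 4.08 and 4.04 against 6.28, 6.02, 6.11 and 5.65 and was the 1 called of 18 retinoic acid genes (-1.99).

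Chromatin genes were called higher in 4 of 51 cases and lower in 0, at a median of 0.11. They were Rest, the repressor of neuronal genes (1.33), Ring1, a Polycomb ubiquitin ligase (1.29), Chd7, a nucleosome remodeller (1.22), and Kdm6b, an H3K27 demethylase (1.10). Their probe sets did not speak with one voice: those of Rest ran from -0.06 to 1.33, those of Chd7 from -0.40 to 1.22 and those of Kdm6b from -0.25 to 1.10, and with the mean of probe sets 1 gene was called. Without labelled iPS array 1, 2 or 3 another Rest probe set became the brightest and its value was -0.088, -0.074 or -0.014. Of 40 imprinted genes, Plagl1, a zinc finger regulator of growth, fell by 1.54, but was 0.064 without probe sets that can bind related transcripts. The RNA-binding proteins Cirbp (-1.09) and Elavl2 (-1.06) were lower among 26 RNA processing genes, and Malat1 was higher. Cirbp was not called without brain NSC array 2 (-0.98), nor Elavl2 without labelled iPS array 2 (-0.998) or brain NSC array 1 (-0.96). The 5 probe sets of Elavl2 ran from -1.06 to 0.06; it was -0.55 as their mean and -0.33 without probe sets that can bind related transcripts, not called in either.

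Of the 10 cell identity lists 5 held a call. Of 25 measured pluripotency genes none was called (median 0.00), and none of 18 oligodendrocyte lineage, 22 neuron, 10 ependyma and 16 microglia and macrophage genes; with 1.84% called among all genes, 0 calls in lists of this size say nothing particular about them. The wider neural stem and radial glia list had Hes5 as its 1 called gene of 26, at a median of -0.06. The astrocyte list had Sparcl1, a secreted matrix protein (1.20), higher and Id3, Apoe and S1pr1 lower, of 20 measured. Fibroblast, endothelium and neural crest lists held Twist1, Cd93, and Kit with Tfap2a. Over the 48 lists, 36 held at least 1 called gene and 12 held none.

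**Figure D4:**
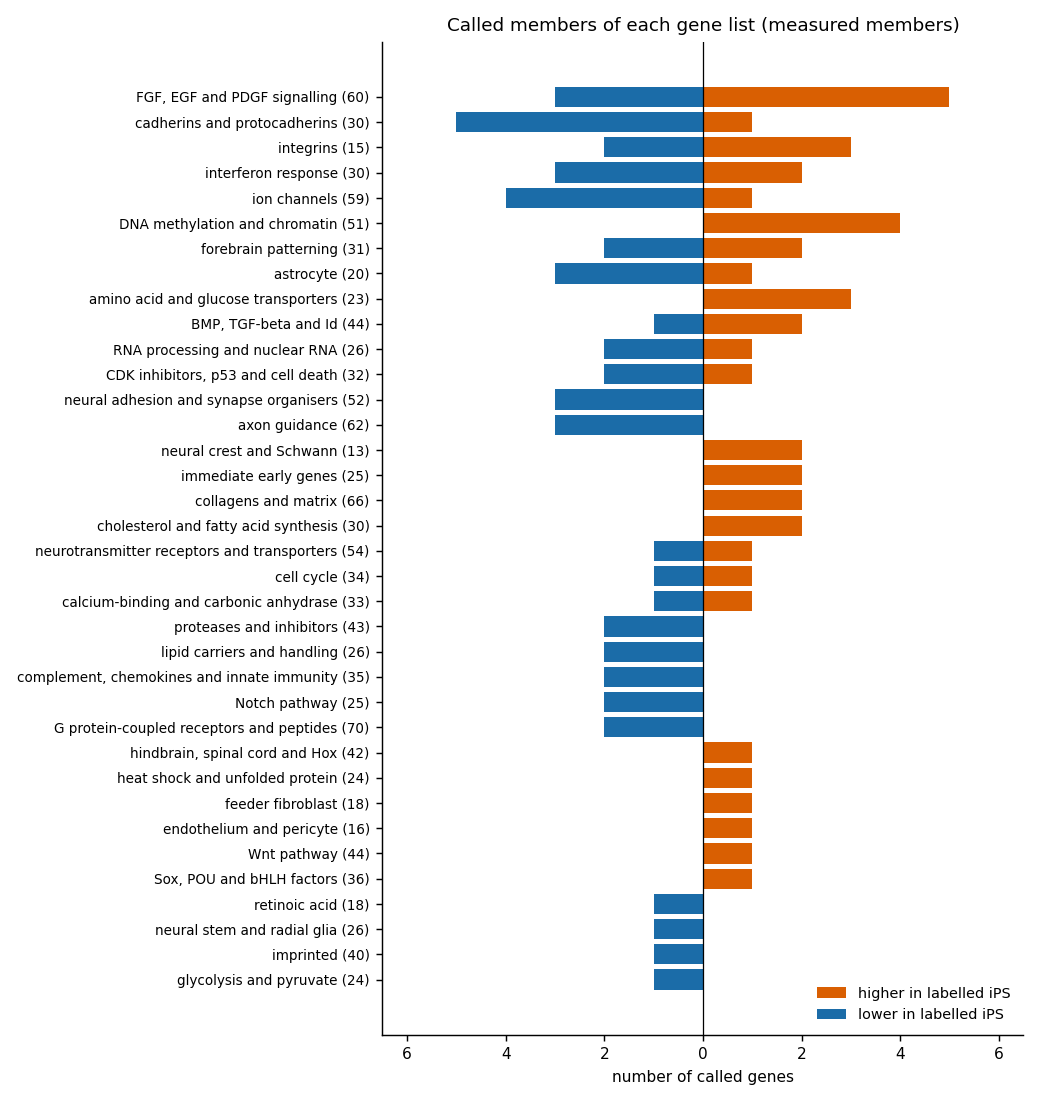
Number of called genes (horizontal axis) in each of the 36 gene lists that held any, higher (right) or lower (left) on the arrays labelled iPS; the number of measured members is in parentheses. FGF, EGF and PDGF signalling has the most, at 5 higher and 3 lower, and cadherins and protocadherins follow at 1 and 5.

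Genes of chromosome 8 were higher as a body. Among its 502 genes with a mean level of at least 7, the median difference was 0.44, or 1.36-fold, the quartiles were 0.19 and 0.67, and 90.04% lay above 0. The other chromosomes had medians from -0.13 (X) to 0.15 (15). By array, the median over these genes, relative to the brain NSC mean, was 0.45, 0.41 and 0.44 on the arrays labelled iPS and -0.06, 0.02, -0.05 and 0.08 on brain NSC. The groups did not overlap (exact two-sided permutation test, p = 0.0286, the smallest that 3 against 4 arrays allow), and array 4 lay with its own group. The chromosome was chosen with its shift known, so the p is a description.

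The shift ran along the whole chromosome. In each of 10 consecutive blocks of 50 or 51 genes, in gene order, the median was above 0, from 0.25 in the third to 0.58 in the tenth, and 82.0% to 96.1% of genes lay above 0. Of the 502 genes, 326 (64.9%) were higher without overlap between the groups, against 19.2% of equally bright genes elsewhere. Of all 932 chromosome 8 genes tested, 37 were called higher, or 3.97%, and 1 lower, which was Vegfc. Besides the signalling genes above, the called rises there included Plvap, a protein of endothelial fenestrae (1.24), Adgra2, a Wnt7 coreceptor (1.07), and Herpud1, an endoplasmic reticulum stress protein (1.00), the first 2 chosen after their values were seen. Adgra2 was not called without brain NSC array 2 (0.99) or 3 (0.98), nor Herpud1 without labelled iPS array 3 (0.998) or brain NSC array 3 or 4 (0.97). Without the genes of this chromosome 136 genes were called higher and 161 lower. DNA copy number was not measured in the files used here.

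**Figure D5:**
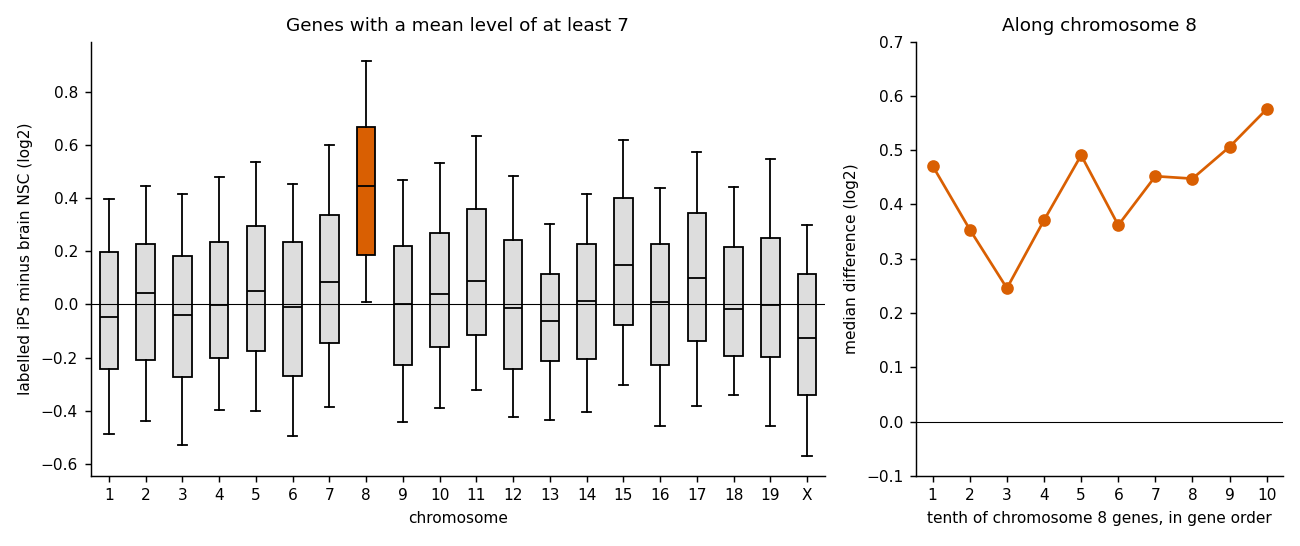
Left, log2 difference between the arrays labelled iPS and brain NSC (vertical axis) of genes with a mean level of at least 7, by chromosome; boxes are quartiles with the median and whiskers the 10th to 90th percentile. Right, median difference in 10 consecutive blocks of chromosome 8 genes; chromosome 8 has a median of 0.44 and each block lies between 0.25 and 0.58.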

How the data were processed

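Gene expression was measured on Affymetrix arrays in 10 mouse samples. The deposited values are log2 expression levels that the authors made with RMA, per the submitters' processing notes, which corrects background, equalises the arrays and summarises each probe set; versions were not given in the sources used here. The table held 45101 probe sets, 64 of them controls. The platform annotation gave 1 gene symbol to 34945, several to 932 and none to 9160, and the last 2 kinds were left out of the gene tests. Of the 34945, 34741 matched RefSeq genes of GRCm38.p6. Each of 18193 genes was represented by the probe set with the highest mean over the 10 arrays.

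Samples were grouped by title. Differences were fitted with limma 3.58.1 (R 4.3.3; lmFit, eBayes) over all 10 arrays in 3 groups, with 7 residual and 5.95 prior degrees of freedom, and adjusted by Benjamini-Hochberg over 18193 genes. A gene was called at an adjusted p under 0.05 and at least 2-fold. Errors of differences are standard errors. The procedure was tested on simulated data. Per-array chromosome medians were compared by exact permutation over 35 splits. Tables and figures used matplotlib 3.10.9, numpy 2.4.6 and pandas 2.3.3 under Python 3.11.15.

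The members, the 48 gene lists (1541 of 1649 entries measured) and the tests were chosen with earlier results of these data known. Genes were named by rule: the 15 largest rises and 15 largest falls without overlap between groups, up to 3 called members of each list with the largest difference, and Pou5f1, Sox2, Klf4 and Myc, 88 genes in all; further called list members are named where their list is described, after their values were seen. Alternatives varied the probe set choice, normalization, filter, threshold, replicate block and the arrays. Precision is set by the number of arrays.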

Additional observations from a re-analysis of the deposited data

Results flagged for a closer look

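For 11 of the 88 named genes 1 brain NSC array lay far from the other 3 of its group, and for 10 of them it was array 4. Chance alone flags about 1 in 20 groups. Array 4 stood at 10.66 for Srebf1, 11.72 for Dhcr7, 9.58 for Slc38a3 and 10.33 for Slc7a5, and in the first 2 the gene serves lipid synthesis and in the others amino acid uptake. It stood at 7.76 for Lhx2 and 8.21 for Chd7, which also lay above the other brain NSC arrays. It lay below them at 6.80 for Cd36, 4.07 for Vegfc, 6.63 for Kcnd2 and 4.66 for Sema3d. In each of the 10 genes its value lay on the side of the arrays labelled iPS. Array 2 stood at 10.88 for Id3, above the other brain NSC arrays and away from the arrays labelled iPS.

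Probe sets without a gene symbol, which the gene tests left out, also differed. Of 9160 such probe sets, 57 were called higher on the arrays labelled iPS (0.622%) and 63 lower (0.688%). The largest fall was in 1437442_at, at 3.65, 3.55 and 3.46 against 7.84, 7.72, 7.71 and 7.64 (-4.17 ± 0.09 SE, limma adjusted p = 5.41e-11). The largest rise was in 1456319_at, at 7.96, 8.79 and 8.19 against 4.83, 5.45, 5.18 and 5.14 (3.16 ± 0.19 SE, limma adjusted p = 2.73e-07). Their genes are not named in the annotation used here.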

How the results depend on the processing

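The 173 higher calls became 110 with the mean of all probe sets, 80 when tested against 1.5-fold, 2013 with no minimum fold and 143 to 333 when 1 array was left out, the last without brain NSC array 4. The 162 lower calls became 113 with the mean of all probe sets, 103 against 1.5-fold, 1691 with no minimum fold and 155 to 206 when 1 array was left out. Of the 335 called genes, 237 were called in each of the 7 fits that left out 1 array. The chromosome 8 median was 0.42 to 0.47 in those fits, which are too small for an exact p under 0.05. The fit with the replicate block called 332 genes higher; since replicate 4 exists in brain NSC alone, that block takes up this array. Same-numbered arrays of the 2 groups did not deviate together throughout (correlations 0.29, -0.10 and 0.19), so the numbers were not taken as a pairing; labelled iPS array 2 correlated best with brain NSC array 4 (0.38).

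Of the 88 named genes, 61 had a value under every alternative; 11 had none without probe sets that can bind related transcripts and 20 none without dim genes. Of those 61, 40 kept their direction and side of the threshold throughout, and of the other 27, 20 did so under the alternatives that gave a value. The remaining 28 changed under at least 1. A choice of probe sets changed 22 of them and a left-out array 11. Those that reversed did so where another probe set became the brightest: Rest at -0.088, -0.074 and -0.014 without labelled iPS array 1, 2 or 3 (its left-out range was -0.088 to 1.38), Zbed6 at -0.34 and -0.20 without labelled iPS array 2 or 3 (range -0.34 to 2.40), and Plagl1 at 0.064 without probe sets that can bind related transcripts. Signal over background limits the genes that lie under the lower quartile in one group, such as Pcdh7 and Met, where folds are compressed. Pmaip1, Ackr3, Gbp2 and Vegfc were under that quartile on the arrays labelled iPS and under the array median on brain NSC.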
